A study of Homo sapiens with 6 samples.

Results

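The potassium channel genes were the protein-coding rows of the deposited gene table that lie on the primary chromosomes and whose symbol is KCN followed by a family letter or letters and a number, KCNA7 left out. The rule used names only and took 94 of the 64253 rows, with 93 symbols, since KCNMB2 stands on a pair of identifiers. They fall into 39 voltage-gated pore subunits, 8 calcium- or sodium-activated pore subunits, 16 inward rectifiers, 15 two-pore-domain subunits and 16 auxiliary subunits. RNA sequencing compared H69 cells given recombinant TGF-beta (10 ng/ml, 16 h) with H69 cells given vehicle, with 3 libraries in each group. H69 is a cholangiocyte line, that is, of bile duct epithelium, immortalised with SV40 large T antigen, and both groups were grown in the same medium at passages 30 to 32. All 6 libraries come from this single line, and the labels do not tell whether a group's libraries stem from different cultures. The p-values therefore reflect library-to-library spread that may be technical.

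Potassium channels let potassium leave or enter a cell along its electrochemical gradient and thereby set the membrane voltage. Voltage-gated channels open on depolarisation, and inward rectifiers pass current more readily into the cell than out of it. Two-pore-domain channels carry background leak, and calcium-activated channels couple the voltage to intracellular calcium. In bile duct epithelium, potassium leaving the cell maintains the electrical driving force for chloride and bicarbonate secretion into bile. TGF-beta is a cytokine that drives SMAD-dependent transcription.

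Few potassium channel genes were read deeply. The total count per library was 37205862 to 54160521 reads, of which potassium channel genes held 5938 to 7694. There were 0 reads in any library for 16 of the 94 rows, 9 of them voltage-gated pore subunits such as KCNA1, KCNA2 and KCNA3, and 33 rows had fewer than 10 reads over the 6 libraries. A count of 0 in a library allows up to 3 reads, which is 0.0534 to 0.0840 CPM, the read count relative to a library size scaled by TMM, and this covers counting error only. The filter on low counts left 39 rows for testing, or 41.5% of the potassium channel rows, against 73.0% of all 19892 protein-coding rows. The 55 rows not tested are neither called nor counted as unchanged.

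Markers of the labelled cell type were present in part and moved in different directions. KRT7, which rose, had 2966 ± 153 CPM in TGF-beta libraries and 1538 ± 169 CPM in vehicle libraries (mean ± SD, n = 3 each, as in all such values). SOX9, a biliary transcription factor, fell to 6.20 ± 0.259 CPM with TGF-beta, against 20.9 ± 4.99 CPM with vehicle, and EPCAM fell to 9.62 ± 0.184 CPM with TGF-beta, against 13.5 ± 2.10 CPM with vehicle (edgeR quasi-likelihood test, Benjamini-Hochberg adjusted p = 1.20e-05 for KRT7, 0.000572 for SOX9 and 0.00391 for EPCAM). KRT19, at 289 ± 20.8 CPM with TGF-beta and 326 ± 94.6 CPM with vehicle, was not called, and CFTR, the apical chloride channel, had 0 reads. The 6 cholangiocyte markers summed to 3124 to 3463 CPM with TGF-beta and 1746 to 2198 CPM with vehicle, a difference carried by KRT7. Of other cell types that use potassium channels heavily, the 3 neuronal markers summed to 13.0 to 14.1 CPM with TGF-beta and 16.7 to 21.9 CPM with vehicle, mostly from SNAP25 and the rest largely from SYP, which both fell, while RBFOX3 had 41 reads in all. The 3 muscle markers summed to 9.93 to 10.4 CPM with TGF-beta and 9.73 to 11.4 CPM with vehicle. Nearly all of this was MYH11, with a mean of 9.79 CPM with TGF-beta and 10.6 CPM with vehicle. MYH11 was not called, and DES had 10 reads in all. The 3 fibroblast markers summed to 134 to 145 CPM with TGF-beta and 65.6 to 79.0 CPM with vehicle, through PDGFRB, while PDGFRA fell to 4.17 ± 0.181 CPM with TGF-beta, against 6.84 ± 0.658 CPM with vehicle (edgeR quasi-likelihood test, Benjamini-Hochberg adjusted p = 0.000279), and LUM had 6 reads in all. Endothelial markers summed to at most 2.20 CPM, haematopoietic markers to at most 10.7 CPM and hepatocyte markers to at most 0.0964 CPM. The haematopoietic sum was nearly all CD68, with a mean of 9.65 CPM with TGF-beta and 9.95 CPM with vehicle. CD68 was not called, and PTPRC had 11 reads in all. The part of these marker differences in the results below was not tested, and in bulk RNA a change in the number of cells that express a gene cannot be told apart from a change in RNA per cell.

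Of the 39 potassium channel genes tested, 5 rose and 10 fell with TGF-beta, and 24 were not called (edgeR quasi-likelihood test, Benjamini-Hochberg adjustment over all 20992 genes tested, adjusted p under 0.05). KCNG1, KCNJ10, KCNJ15, KCNMB4 and KCNK6 rose, and those that fell included KCNK2, KCNJ2, KCNJ11, KCNK5, KCNH3, KCNAB2, KCNE3, KCNIP3 and KCND1. Over all genes tested, 40.1% were called, 19.7% higher and 20.4% lower, so the 15 of 39 potassium channel genes, 38.5%, stand near the background, and below the 46.8% of protein-coding genes called. The sizes of the changes were larger: 11 of the 39 genes, 28.2%, were called with a change of at least 2-fold, 4 of them higher and 7 lower, against 8.37% of all genes, where 4.78% were higher and 3.59% lower. Most potassium channel genes were at low levels. Below a mean of 20 CPM, 10 of 38 potassium channel genes, 26.3%, were called at 2-fold or more, against 11.2% of the 12245 genes in that range. The median log2 fold change was 0.09 over the potassium channel genes tested and -0.01 over all genes tested.

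**Figure D1:**
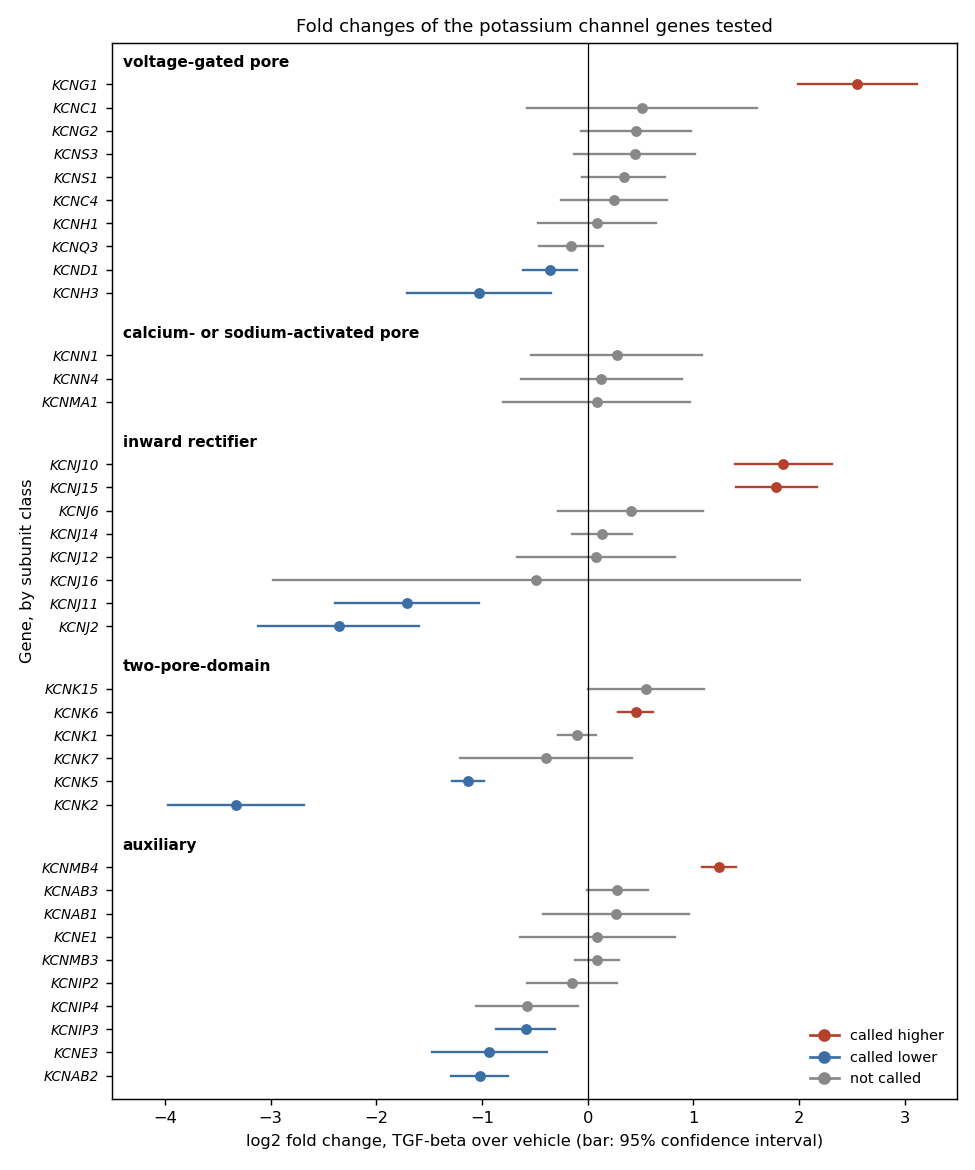
Log2 fold change of TGF-beta over vehicle for 37 of the 39 potassium channel genes tested, with 95% confidence intervals as bars and colours for called higher, called lower and not called. The 5 genes called higher lie between 0.46 and 2.55 and the 9 shown as called lower between -3.33 and -0.36, while the interval of KCNJ16 is the widest.

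All 15 called genes had TGF-beta and vehicle libraries that did not overlap, and so did 4 genes that were not called, KCNAB3 and KCNK15 with higher and KCNIP4 and KCNK1 with lower values under TGF-beta. Over all genes, 52.3% had groups that did not overlap, 25.4% higher and 26.9% lower, so the 19 of 39 potassium channel genes are again near the background. The called genes are described by class below. KCNJ11, KCNE3, KCNIP3 and KCND1 were outside the rule for named genes and were chosen after their values were seen.

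Among the inward rectifiers, 2 genes rose, 2 fell and 4 were not called of the 8 tested out of 16. RefSeq gives 1 promoter for each of KCNJ15, KCNJ10 and KCNJ2, and the sequences are shown because these genes moved by the largest folds in the class and in both directions. Each is 250 bases before to 50 bases after an annotated start, read 5′ to 3′ on the gene's strand (GRCh38.p14). Capitals mark every match to CAGAC or its reverse complement GTCTG, the SMAD-binding box, and to TGACTCA or TGAGTCA, the AP-1 motif.
KCNJ15, chr21:38272258-38272557, plus strand: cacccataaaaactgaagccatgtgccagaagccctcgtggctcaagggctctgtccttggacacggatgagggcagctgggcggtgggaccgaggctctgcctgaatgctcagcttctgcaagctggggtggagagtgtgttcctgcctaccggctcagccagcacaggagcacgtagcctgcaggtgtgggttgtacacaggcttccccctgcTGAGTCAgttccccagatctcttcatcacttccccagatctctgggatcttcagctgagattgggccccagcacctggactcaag
KCNJ10, chr1:160070111-160070410, minus strand: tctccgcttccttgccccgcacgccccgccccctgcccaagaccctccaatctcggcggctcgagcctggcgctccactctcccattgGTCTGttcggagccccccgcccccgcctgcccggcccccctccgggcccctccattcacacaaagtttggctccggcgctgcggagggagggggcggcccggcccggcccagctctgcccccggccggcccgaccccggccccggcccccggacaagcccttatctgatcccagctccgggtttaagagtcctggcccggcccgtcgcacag
KCNJ2, chr17:70169282-70169581, plus strand: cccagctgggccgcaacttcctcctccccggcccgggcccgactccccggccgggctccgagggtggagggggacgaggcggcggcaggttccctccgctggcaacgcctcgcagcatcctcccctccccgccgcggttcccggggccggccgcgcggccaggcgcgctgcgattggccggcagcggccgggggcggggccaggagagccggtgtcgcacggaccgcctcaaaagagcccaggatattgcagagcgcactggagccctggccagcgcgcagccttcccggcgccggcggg
The window of KCNJ15 holds 1 AP-1 motif and 0 SMAD boxes, that of KCNJ10 holds 1 SMAD box and 0 AP-1 motifs, and that of KCNJ2 holds 0 of either. Of all 35116 promoters of this length, 45.3% hold the SMAD box and 4.95% hold the AP-1 motif.

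KCNJ15, which encodes the inward rectifier Kir4.2, was the most abundantly counted potassium channel gene. It had 52.0, 52.0 and 47.5 CPM in TGF-beta libraries, against 18.6, 12.8 and 12.7 CPM in vehicle libraries. The lowest TGF-beta library stood well above the highest vehicle library, and vehicle replicate 1 was the highest of its group. The log2 fold change was 1.79 (SE 0.16), a 3.45-fold rise (edgeR quasi-likelihood test, Benjamini-Hochberg adjusted p = 0.000264). Per length its level was 2.14 ± 0.120 RPKM with TGF-beta and 0.663 ± 0.152 RPKM with vehicle. KCNJ10, which encodes Kir4.1, the glial and renal inward rectifier, had 1.57, 1.72 and 1.47 CPM in TGF-beta libraries, against 0.382, 0.552 and 0.366 CPM in vehicle libraries. All 3 TGF-beta values lay above all 3 vehicle values. The fitted log2 fold change was 1.85 (SE 0.21; edgeR quasi-likelihood test, Benjamini-Hochberg adjusted p = 5.42e-05), from 257 reads in all libraries together.

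KCNJ2, which encodes Kir2.1, a strong inward rectifier of heart and skeletal muscle, had 1.15, 0.507 and 0.439 CPM in TGF-beta libraries, against 3.03, 4.36 and 3.07 CPM in vehicle libraries. The groups were far apart, although TGF-beta replicate 1 was 2.43 times the mean of the other TGF-beta libraries. On the log2 scale the fold change was -2.35 (SE 0.33), the largest fall among inward rectifiers (edgeR quasi-likelihood test, Benjamini-Hochberg adjusted p = 0.000865). KCNJ11, which encodes Kir6.2, the pore of the ATP-sensitive channel, had 0.112, 0.221 and 0.310 CPM in TGF-beta libraries, against 0.787, 0.658 and 0.714 CPM in vehicle libraries. The groups did not overlap, but the gene rests on 133 reads in all. Its log2 fold change was -1.71 (SE 0.31; edgeR quasi-likelihood test, Benjamini-Hochberg adjusted p = 0.00137). ABCC8 and ABCC9, the sulfonylurea receptors that assemble with Kir6 pores, had too few reads to be tested.

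Of the inward rectifiers not called, KCNJ14, which encodes Kir2.4, had 4.06, 4.77 and 4.98 CPM in TGF-beta libraries, against 3.96, 3.77 and 4.86 CPM in vehicle libraries. The groups overlapped, with a log2 fold change of 0.13 (95% interval -0.15 to 0.42; edgeR quasi-likelihood test, Benjamini-Hochberg adjusted p = 0.439). Exons of GRWD1 and AC008403.1 on the same strand cover 8.06% and 2.79% of the exon bases of KCNJ14. Those of AC008403.2 on the opposite strand cover 16.5%, so the reads of KCNJ14 in these bases are uncertain. KCNJ16, which encodes Kir5.1, a partner of Kir4 subunits, had 2.91, 2.51 and 3.07 CPM in TGF-beta libraries, against 9.30, 1.32 and 1.62 CPM in vehicle libraries. Vehicle replicate 1 alone lay above the TGF-beta libraries, and the other vehicle libraries lay below them. The interval of the log2 fold change, -0.48, ran from -2.98 to 2.01 (edgeR quasi-likelihood test, Benjamini-Hochberg adjusted p = 0.726).

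Among the two-pore-domain genes, 1 rose, 2 fell and 3 were not called of the 6 tested out of 15. The promoter of KCNK5 is shown as that of the most abundant gene of the class to fall.
KCNK5, chr6:39229426-39229725, minus strand: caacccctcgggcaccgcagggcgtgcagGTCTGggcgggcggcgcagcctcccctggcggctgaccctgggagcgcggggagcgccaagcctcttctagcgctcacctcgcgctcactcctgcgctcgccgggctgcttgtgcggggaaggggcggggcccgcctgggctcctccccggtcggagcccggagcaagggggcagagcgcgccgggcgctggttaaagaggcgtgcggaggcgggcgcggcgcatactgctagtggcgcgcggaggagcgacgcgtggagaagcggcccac
It holds 1 SMAD box and 0 AP-1 motifs. KCNK5, which encodes the acid-sensitive background channel TASK-2, had 8.42, 8.91 and 8.31 CPM in TGF-beta libraries, against 17.9, 18.5 and 19.7 CPM in vehicle libraries. Replicates were close within each group and the groups were well separated. The log2 fold change was -1.13 (SE 0.07; edgeR quasi-likelihood test, Benjamini-Hochberg adjusted p = 5.65e-07), a 2.19-fold fall. KCNK2, which encodes the stretch- and lipid-sensitive channel TREK-1, had 0.196, 0.0882 and 0.206 CPM in TGF-beta libraries, against 1.45, 1.92 and 1.47 CPM in vehicle libraries. It showed the largest change of any potassium channel gene tested, with TGF-beta values close to the 3-read floor. The fitted log2 fold change was -3.33 (SE 0.29; edgeR quasi-likelihood test, Benjamini-Hochberg adjusted p = 8.76e-06), from 264 reads in all.

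KCNK6, which encodes TWIK-2, had 19.0, 19.2 and 19.8 CPM in TGF-beta libraries, against 12.5, 14.7 and 15.0 CPM in vehicle libraries. The groups did not overlap, but the rise was the smallest of those called. On the log2 scale the fold change was 0.46 (SE 0.08; edgeR quasi-likelihood test, Benjamini-Hochberg adjusted p = 0.000826). KCNK1, which encodes the related TWIK-1, had 5.79, 5.93 and 6.12 CPM in TGF-beta libraries, against 6.46, 6.33 and 6.36 CPM in vehicle libraries. Although the groups did not overlap, the log2 fold change was -0.10 (95% interval -0.28 to 0.08) and was not called (edgeR quasi-likelihood test, Benjamini-Hochberg adjusted p = 0.344).

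Among the voltage-gated pore subunits, 1 rose, 3 fell and 8 were not called of the 12 tested out of 39. KCNG1, a modulatory subunit that forms no channel alone but joins Kv2 subunits, had 0.980, 1.06 and 1.16 CPM in TGF-beta libraries, against 0.143, 0.231 and 0.154 CPM in vehicle libraries. Every TGF-beta value was several-fold above every vehicle value, at a low level throughout. Its log2 fold change was 2.55 (SE 0.25), the largest rise of the potassium channel genes tested (edgeR quasi-likelihood test, Benjamini-Hochberg adjusted p = 2.25e-05), from 155 reads in all.

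KCNH3, an ether-à-go-go-like channel of brain, had 0.532, 0.507 and 0.387 CPM in TGF-beta libraries, against 0.549, 1.12 and 1.20 CPM in vehicle libraries. Vehicle replicate 1 lay just above the TGF-beta libraries and far below the other vehicle libraries. On the log2 scale the fold change was -1.03 (SE 0.31; edgeR quasi-likelihood test, Benjamini-Hochberg adjusted p = 0.0218), and the call was lost when any library other than vehicle replicate 1 was left out, with adjusted p-values of 0.0579 to 0.0963.

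KCND1, which encodes Kv4.1, had 3.19, 3.79 and 4.08 CPM in TGF-beta libraries, against 4.56, 5.09 and 4.53 CPM in vehicle libraries. The difference was small and the groups lay close together. Its log2 fold change was -0.36 (SE 0.12; edgeR quasi-likelihood test, Benjamini-Hochberg adjusted p = 0.0320). The call was lost with DESeq2 (adjusted p = 0.0739) and in edgeR's test without TGF-beta replicate 1, TGF-beta replicate 2 or vehicle replicate 2 (adjusted p = 0.118, 0.0806 and 0.121). KCNS3, a silent subunit that modifies Kv2 channels, had 3.89, 3.93 and 3.95 CPM in TGF-beta libraries, against 4.27, 2.26 and 2.24 CPM in vehicle libraries. Vehicle replicate 1 again lay above every other library. The log2 fold change was 0.44 (95% interval -0.13 to 1.02; edgeR quasi-likelihood test, Benjamini-Hochberg adjusted p = 0.197). KCNQ1, the epithelial Kv7 channel, had 42 reads in all and was not tested.

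Of the 8 genes for calcium- or sodium-activated pores, 3 were tested and 0 were called by edgeR's quasi-likelihood test, 0 at an unadjusted p under 0.05 and 0 by DESeq2. KCNN4, which encodes the intermediate-conductance channel KCa3.1, had 4.81, 5.47 and 5.03 CPM in TGF-beta libraries, against 2.53, 5.46 and 5.88 CPM in vehicle libraries. Vehicle replicate 1 was low, and the other vehicle libraries lay level with or above the highest TGF-beta library. The fitted log2 fold change was 0.13 (95% interval -0.63 to 0.89; edgeR quasi-likelihood test, Benjamini-Hochberg adjusted p = 0.775). KCNMA1, the pore of the large-conductance BK channel, had 1.79, 2.10 and 2.01 CPM in TGF-beta libraries, against 0.811, 2.46 and 2.20 CPM in vehicle libraries. The same vehicle library was low here too. On the log2 scale the fold change was 0.09 (95% interval -0.80 to 0.97; edgeR quasi-likelihood test, Benjamini-Hochberg adjusted p = 0.879).

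Among the auxiliary subunits, 1 rose, 3 fell and 6 were not called of the 10 tested out of 16. KCNMB4, the beta-4 subunit of the BK channel, had 18.4, 17.3 and 16.4 CPM in TGF-beta libraries, against 7.15, 7.30 and 7.56 CPM in vehicle libraries. Replicates were tight in both groups. Its log2 fold change was 1.24 (SE 0.07; edgeR quasi-likelihood test, Benjamini-Hochberg adjusted p = 3.75e-07), the smallest adjusted p of any potassium channel gene. Its pore gene KCNMA1 was not called, and the difference between the fold changes of the subunits was not tested. KCNMB3, the beta-3 subunit, had 4.86 ± 0.135 CPM with TGF-beta and 4.57 ± 0.250 CPM with vehicle and was not called, but exons of PIK3CA on the opposite strand cover 37.9% of its exon bases, so its reads are uncertain.

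KCNAB2, a cytoplasmic beta subunit of Kv1 channels with aldo-keto reductase homology, had 3.16, 3.49 and 3.84 CPM in TGF-beta libraries, against 6.08, 7.24 and 7.97 CPM in vehicle libraries. The groups were clearly separate. The log2 fold change was -1.02 (SE 0.12; edgeR quasi-likelihood test, Benjamini-Hochberg adjusted p = 9.58e-05). KCNIP3, a calcium-binding Kv4 partner also known as DREAM, had 3.75, 3.95 and 4.77 CPM in TGF-beta libraries, against 7.13, 5.68 and 5.98 CPM in vehicle libraries. The groups did not overlap and the log2 fold change was -0.59 (SE 0.12; edgeR quasi-likelihood test, Benjamini-Hochberg adjusted p = 0.00379). KCNE3, a single-span subunit that holds KCNQ1 channels open in epithelia, had 0.392, 0.552 and 0.697 CPM in TGF-beta libraries, against 0.906, 0.961 and 1.27 CPM in vehicle libraries. The groups were separate at a low level. The fitted log2 fold change was -0.93 (SE 0.24; edgeR quasi-likelihood test, Benjamini-Hochberg adjusted p = 0.0118), and without TGF-beta replicate 1 the adjusted p was 0.0513.

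**Figure D2:**
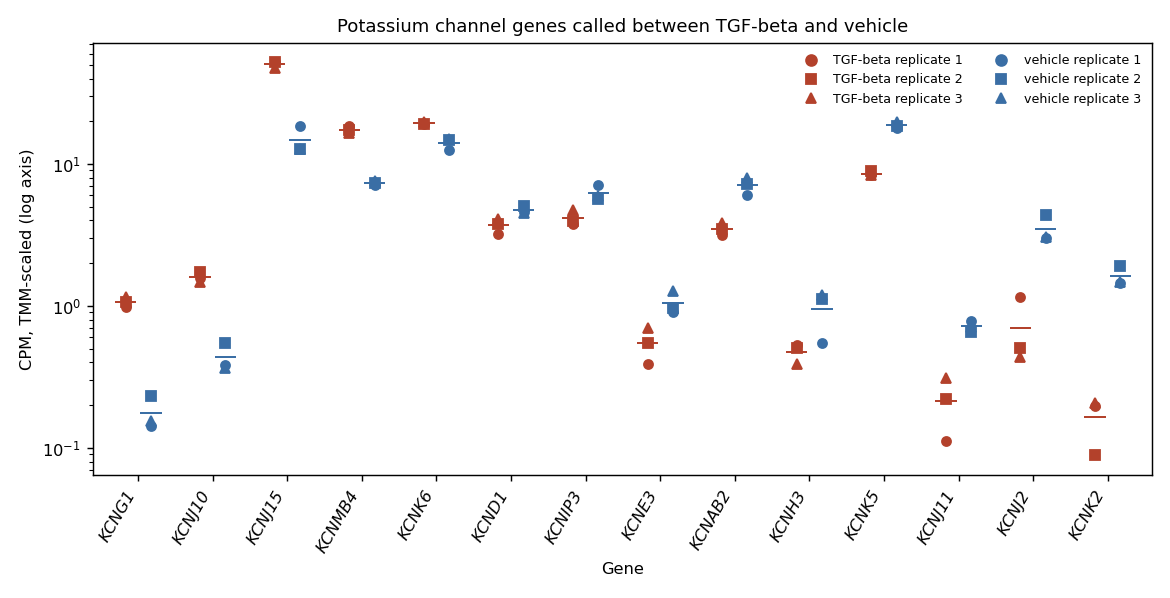
CPM of 14 of the 15 called potassium channel genes in each library on a log axis, TGF-beta libraries left of vehicle libraries for each gene. Points are single libraries and short lines are group means, and no gene shown has TGF-beta libraries that overlap its vehicle libraries.

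The make-up of the potassium channel transcripts differed between the groups. As shares of the summed RPKM of all 94 rows, which compares genes per length, KCNJ15 made up 16.8% ± 0.852 with TGF-beta and 5.47% ± 1.19 with vehicle, and KCNMB4 made up 11.5% ± 0.725 with TGF-beta and 5.46% ± 0.173 with vehicle. KCNK5 made up 7.37% ± 0.219 with TGF-beta and 18.1% ± 0.884 with vehicle. KCNK6 made up 20.1% ± 0.445 with TGF-beta and 16.4% ± 1.70 with vehicle. Ranked by mean RPKM, the order with TGF-beta was KCNK6, KCNJ15, KCNMB4 and KCNK5, and with vehicle it was KCNK5, KCNK6, KCNK1 and KCNJ15. In vehicle libraries KCNK5 averaged 2.19 ± 0.107 RPKM and KCNK6 1.98 ± 0.187 RPKM, spreads that touch. Within each vehicle library KCNK5 was the higher, with 2.10, 2.15 and 2.30 RPKM, against 1.77, 2.06 and 2.12 RPKM for KCNK6. The place of KCNJ15 with vehicle rests on replicate 1: it had 0.838, 0.576 and 0.574 RPKM in vehicle libraries, and KCNMB4 had 0.645, 0.653 and 0.683 RPKM and KCNN4 0.338, 0.725 and 0.787 RPKM, both above it in replicates 2 and 3. These 4 genes, KCNK6, KCNJ15, KCNMB4 and KCNK5, together held 55.8% ± 1.24 of the potassium channel RPKM with TGF-beta and 45.4% ± 1.52 with vehicle. With KCNK1, KCNN4, KCNS3 and KCNJ14, the 8 most abundant genes held 73.7% ± 0.724 with TGF-beta and 63.8% ± 2.54 with vehicle. These shares are descriptions of the same counts as the tests above.

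**Figure D3:**
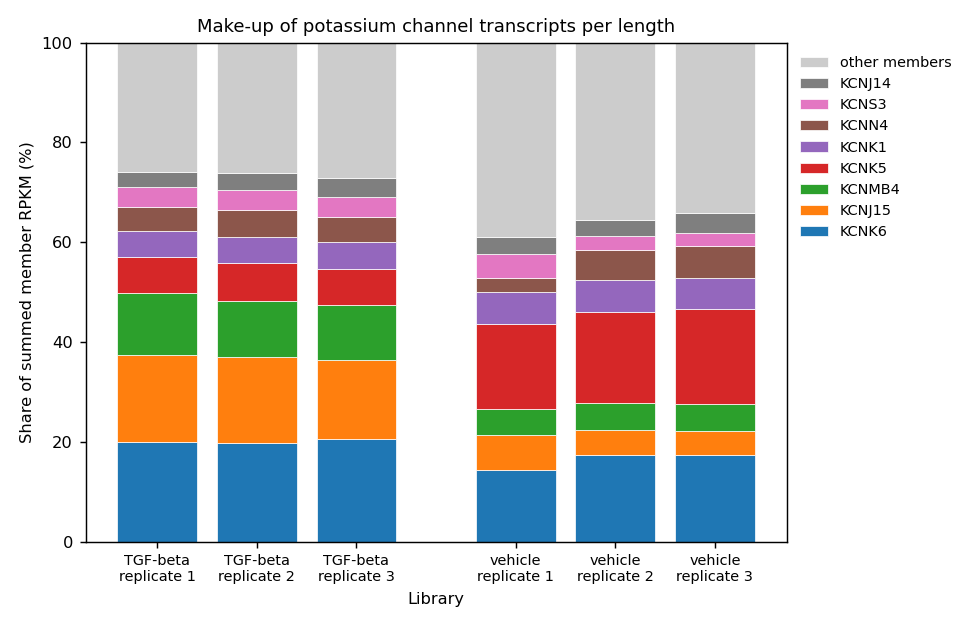
Stacked shares, in percent, of the summed RPKM of the potassium channel genes in each library, TGF-beta libraries on the left and vehicle libraries on the right. KCNJ15 takes 16.8% with TGF-beta and 5.47% with vehicle on average, and KCNK5 takes 7.37% with TGF-beta and 18.1% with vehicle.

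The summed counts of the 94 rows were 160, 163 and 157 CPM of the table total, with no TMM factor, in TGF-beta libraries, against 149, 137 and 139 CPM in vehicle libraries. The TGF-beta libraries were all higher, by 18.3 CPM on average, with p = 0.1 in an exact two-sided permutation test over libraries, which is the smallest p that 3 against 3 libraries allow. The direction rests on KCNJ15 alone. Summed over the other 93 rows, an alternative chosen after seeing the data, the TGF-beta libraries had 110, 113 and 112 CPM, against 129, 123 and 126 CPM in vehicle libraries. Without KCNJ15 the TGF-beta libraries were all lower, with a mean difference of -14.7 CPM, again with p = 0.1 in the exact permutation test. The TMM factors left out of these sums were 0.951 to 0.961 in TGF-beta libraries and 1.04 to 1.05 in vehicle libraries. The sizes of both differences therefore depend on the scaling, and TMM-scaled sums were not tested.

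Vehicle replicate 1 stood apart from the other vehicle libraries in many of these genes. It was more than 1.5-fold from both other vehicle libraries in 13 of the 39 potassium channel genes tested, 33.3%, against 7.29% of all genes tested. Below 20 CPM the counts were 13 of 38 potassium channel genes and 10.6% of all genes. It was high for 7 genes, among them KCNC1, KCNE1, KCNG2, KCNJ16, KCNJ6 and KCNS3, and low for 6, KCNAB1, KCNC4, KCNH1, KCNH3, KCNMA1 and KCNN4. No other library stood apart in more than 3 of the 39. On the second principal component of all genes, with 11.6% of the variance, it lay at 36.6 and the other vehicle libraries at -14.9 and -18.7. What sets this library apart was not tested.

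**Figure D4:**
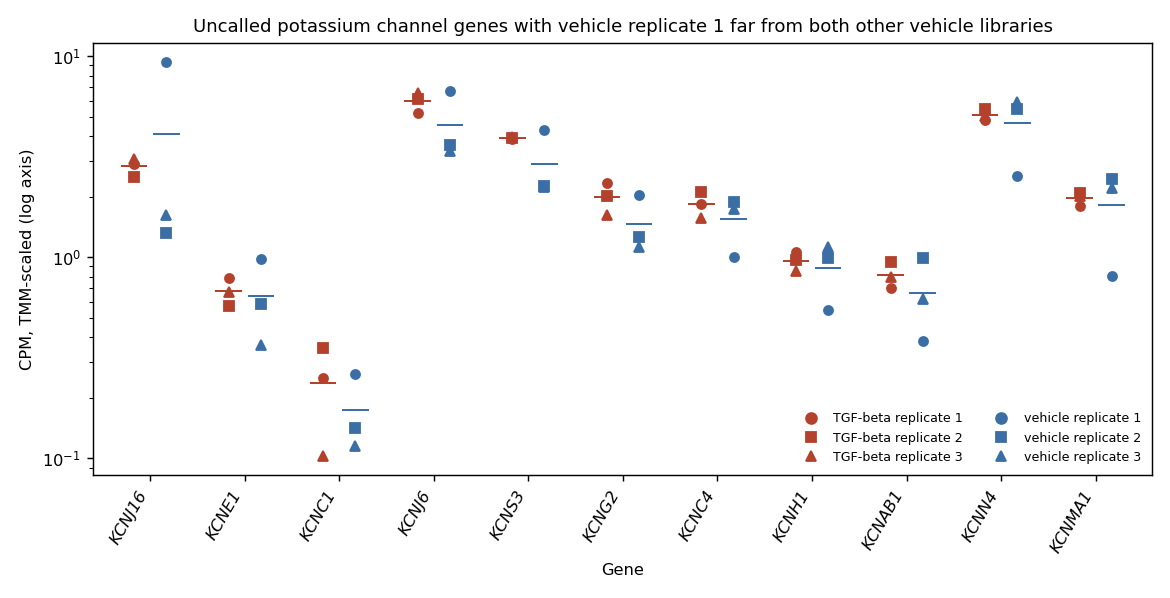
CPM per library, on a log axis, of 11 of the 12 uncalled potassium channel genes in which vehicle replicate 1 lay more than 1.5-fold from both other vehicle libraries, TGF-beta libraries left of vehicle libraries. Short lines are group means. For KCNJ16 vehicle replicate 1 has 9.30 CPM and the other vehicle libraries 1.32 and 1.62 CPM.

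Without vehicle replicate 1, 11 potassium channel genes were called higher and 12 lower of 41 tested, where 50.4% of all 21781 genes tested were called, 24.9% higher and 25.5% lower. All 15 calls remained. Newly called higher were KCNJ16 at a log2 fold change of 0.94, KCNJ6, a G-protein-gated inward rectifier, at 0.77, KCNS3 at 0.80, KCNG2 at 0.74, KCNK15 at 0.73 and KCNK3, the acid-sensitive TASK-1, at 1.65. Newly called lower were KCNIP4 at -0.68 and KCNH2, the hERG channel, at -1.54. KCNK3, with 45 reads in all, and KCNH2, with 51, were among the 55 rows that the filter left out of the main test. For KCNK15, exons of RIMS4 and KCNK15-AS1 on the opposite strand cover 19.5% and 2.19% of its exon bases, so its reads are uncertain. The adjusted p-values in edgeR's quasi-likelihood test ran from 1.05e-06 for KCNJ6 to 0.0366 for KCNK15. KCNN4, at -0.14, and KCNMA1, at -0.24, were not called in this fit.

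Potassium channels act with pumps, cotransporters, partner proteins and regulators, of which a list of 48 genes was examined. Of the 27 tested, 7 rose, 9 fell and 11 were not called, against 19.7% higher and 20.4% lower over all genes, and the median log2 fold change was 0.04. HCN2, a hyperpolarisation-activated cation channel, had 7.58, 8.27 and 8.41 CPM in TGF-beta libraries, against 2.46, 2.60 and 2.60 CPM in vehicle libraries. The groups were far apart, with a log2 fold change of 1.66 (SE 0.09; edgeR quasi-likelihood test, Benjamini-Hochberg adjusted p = 3.38e-07). NEDD4L and NEDD4, related ubiquitin ligases that act on channel proteins among others, moved in opposite directions. NEDD4L had 67.2, 64.7 and 68.3 CPM in TGF-beta libraries, against 148, 163 and 153 CPM in vehicle libraries, and a log2 fold change of -1.21 (SE 0.05; edgeR quasi-likelihood test, Benjamini-Hochberg adjusted p = 3.40e-08). NEDD4 had 149, 143 and 139 CPM in TGF-beta libraries, against 84.1, 77.9 and 78.9 CPM in vehicle libraries, and a log2 fold change of 0.84 (SE 0.05; edgeR quasi-likelihood test, Benjamini-Hochberg adjusted p = 3.32e-07). Neither gene's groups overlapped.

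AMIGO1, an adhesion protein that joins Kv2 channels, had 2.43, 3.07 and 2.37 CPM in TGF-beta libraries, against 6.18, 7.62 and 7.31 CPM in vehicle libraries. The groups were well separated, with a log2 fold change of -1.42 (SE 0.13; edgeR quasi-likelihood test, Benjamini-Hochberg adjusted p = 1.26e-05). ATP1B2, a sodium pump beta subunit, rose by 0.80 and FXYD3, a sodium pump regulator, had a log2 fold change of -0.78. Both calls rest on low counts and were lost with DESeq2 and without TGF-beta replicate 1, TGF-beta replicate 3 or vehicle replicate 2 (for FXYD3 also vehicle replicate 1), with adjusted p-values up to 0.102 for ATP1B2 and 0.112 for FXYD3.

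Cotransporters that carry potassium with chloride were split. SLC12A2, the sodium-potassium-chloride cotransporter NKCC1 of secretory epithelia, had 53.0 ± 0.866 CPM with TGF-beta and 90.2 ± 9.51 CPM with vehicle, a log2 fold change of -0.77. SLC12A4, the potassium-chloride cotransporter KCC1, rose by 0.36, and WNK1, a kinase that regulates this family, rose by 0.53. The calmodulin genes CALM2 and CALM3, whose product gates calcium-activated and Kv7 channels, fell by 0.25 and 0.16, and the anchoring protein gene AKAP9 fell by 0.20. SLC12A7 and ATP1B3 were called higher by 0.16 and 0.19. The call of SLC12A7, whose groups overlapped, was lost in 8 of the 14 alternatives, among them scaling by library totals, which also ended that of ATP1B3. Those of CALM3 and AKAP9 were each lost without any 1 of 3 libraries: TGF-beta replicate 2 and vehicle replicate 2 for both genes, TGF-beta replicate 1 for CALM3 and TGF-beta replicate 3 for AKAP9.

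**Figure D5:**
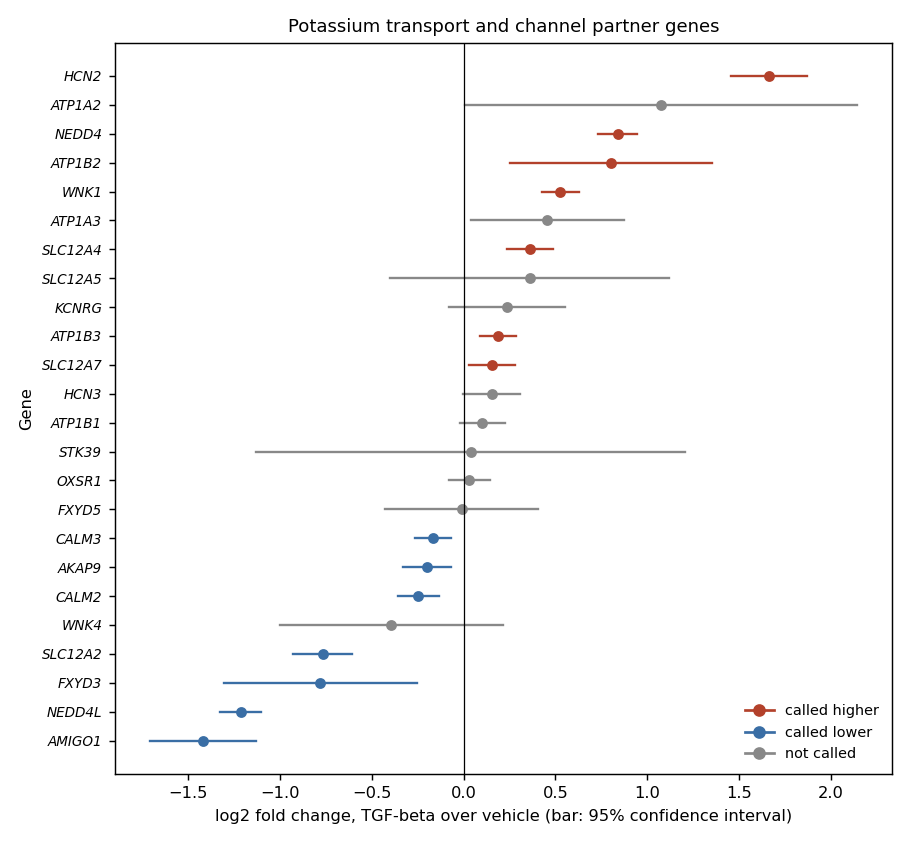
Log2 fold change of TGF-beta over vehicle, with 95% confidence intervals, for 24 of the 27 potassium transport and channel partner genes tested, coloured by call. HCN2 at 1.66 lies at the upper end and AMIGO1 at -1.42 at the lower end.

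RefSeq promoters were at hand for 10 of the 15 called genes, 14 windows in all. Of these windows 7 hold the SMAD box, where 45.3% of all promoters do, and 1 holds the AP-1 motif. The nearest tested protein-coding genes that do not overlap a called gene were taken, 1 on each side. They were called the same way in 9 of 30 cases, the other way in 7 and not called in 14. Overlapping genes were skipped, such as NPHP4 at KCNAB2 and MCRS1 at KCNH3, so a gene taken can lie far away. For KCNAB2, C1orf174 was taken at 2091173 bases. Over all protein-coding genes tested, 46.8% were called in either direction, and whether neighbours move together was not tested. KCNJ15 and KCNJ6 are 240588 bases apart on chromosome 21, and KCNJ16 and KCNJ2 are 33065 bases apart on chromosome 17; in each pair 1 gene was called and the other was not. Genes on the opposite strand share exon bases with called potassium channel genes. They share 16.6% of the exon bases of KCNE3, 7.98% of KCNG1 and 3.32% of KCNJ2, and less than that of KCNAB2 and KCNH3. No source used here gives the strand setting of the counting, so reads in these bases cannot be assigned. KCNJ12 and KCNJ18 are near-identical copies, so the counts of KCNJ12 are uncertain.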

How the data were processed

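RNA sequencing of 6 H69 libraries was taken from 1 deposited table of 64253 genes, grouped by the treatment in the labels. The submitters' processing notes name bcl2fastq, STAR 2.6.1 and featureCounts of Subread, with hg38. Counts, per the file headers, are the authors' raw whole numbers for each gene. The RPKM columns are the authors' deposited values, scaled to gene length and a library total of which the table's counts are 41.9 to 43.3%. Annotation release, strand setting and handling of multi-mapped reads are not given in the sources used here. Replicates differed by more than sampling noise, so none was counted as a duplicate.

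Counts were tested in R 4.3.3 with edgeR 4.0.16: TMM scaling, filterByExpr (at least 10 reads as its minimum) and the robust quasi-likelihood test, with no replicate block. The Benjamini-Hochberg adjustment covered 20992 genes, with calls at an adjusted p under 0.05. After TMM scaling, 1 CPM is 35.7 to 56.2 reads. Confidence intervals are at 95%. Alternatives used DESeq2 1.42.0, limma 3.58.1 on log2 of the deposited RPKM plus 1 or 0.1 (mean RPKM of at least 0.5), other scalings and filters, a replicate block, and leaving out each library, 14 in all. The steps were tested on simulated data.

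Named genes are called genes of at least 0.5 CPM with an absolute log2 fold change of at least 1, the 8 highest by RPKM, and the largest called rise and fall in each class; of the partner list, the 3 largest called rises and falls of at least 0.5 CPM. Values are also given for genes outside these rules, chosen after their values were seen. Among them are KCNJ16, KCNMA1 and KCNMB3. Of the partner list they include SLC12A2, SLC12A4, SLC12A7, WNK1, CALM2, CALM3, AKAP9 and ATP1B3. The potassium channel genes, lists, markers and rules were chosen with earlier results of these data known. Some results are not reported here. Exon overlaps come from GENCODE v29, and promoters from RefSeq for GRCh38.p14.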

Additional observations from a re-analysis of the deposited data

How the results depend on the processing

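Of the 15 potassium channel calls, 12 were kept in every one of the 14 alternatives in which the gene was tested; KCND1, KCNE3 and KCNH3 were not. The count of all genes called higher was 2698 with library totals, 2406 with limma on log2(RPKM + 1) and 2402 with a pseudocount of 0.1, and that of all genes called lower was 7282 with library totals, which shift the median log2 fold change of all genes to -0.14 and add calls for KCNIP4 and KCNK1. Potassium channel genes called higher numbered 8 with no filter on low counts (KCNG2, KCNK3 and KCNS3 added), and 3 higher and 1 lower with limma at either pseudocount, which tests 6 of them. A pseudocount of 1 shrinks the log2 fold changes of low genes by construction, to 0.92 for KCNJ15 and 0.57 for KCNMB4. Partner genes called higher numbered 4 with limma at either pseudocount. The median log2 fold change of potassium channel genes was -0.039 with library totals, -0.14 with no filter, and 0.15 and 0.24 with limma at pseudocounts of 1 and 0.1, so its sign depends on the setting. Leaving out 1 library at a time gave 3204 to 5428 genes called higher and 3055 to 5556 lower, 5 to 11 potassium channel genes higher and 7 to 12 lower, a median of 0.021 to 0.12, 5 to 9 partner genes higher and 6 to 10 lower, and a difference in summed counts of 15.8 to 21.9 CPM. Leaving KCNJ15 out of that sum, an alternative chosen after seeing the data, reversed the difference to -14.7 CPM, on table totals with no TMM factor. The log2 fold change of KCNJ16 ran from -0.92 to 0.94 when 1 library was left out and reversed, to 0.94, without vehicle replicate 1; the cause was not tested. The deviations of same-numbered libraries had correlations of 0.0652, 0.0623 and 0.0129 over the 3 numbers, against -0.0702 to 0.0136 for libraries of different number. With 3 libraries in each group, such small values cannot decide whether the numbers pair the libraries. The replicate block gave 6 potassium channel genes higher, KCNG2 added, and 10 lower, and 4247 higher and 4330 lower of all genes. Depth limits the 55 rows not tested in the main fit. Changes are reported for KCNK3 and KCNH2 alone of these, from alternatives in which they were tested.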
